A study of Mus musculus with 24 samples.

Results

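Ribosomal protein mRNAs were followed through small RNA libraries of mouse embryonic stem cells (mESC) and of neural progenitor cells (NPC) derived from them. The members are the rows of the count table whose identifier belongs to a GENCODE M21 protein-coding gene with a symbol starting Rpl or Rps and a digit, or Rplp0, Rplp1, Rplp2 or Rpsa, with the Rps6k kinases left out. There were 92 such genes among 55335 in the table and 21899 protein-coding ones. By role, 43 encode large subunit proteins, 31 small subunit proteins and 3 the P stalk, 7 are paralogs, 7 carry a retrogene or pseudogene symbol, and Rps19bp1 enters by its name alone.

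The series addresses RNA processing in cells with CAG repeats of different length in Htt, the gene expanded in Huntington's disease. Cells of 6 genotypes were sequenced in both cell types, with 2 libraries per group and 24 in all, described as biological samples. KO cells lacked Htt, WT cells were wild type, and the Q20, Q50, Q92 and Q111 cells were heterozygous knock-ins with 20, 50, 92 and 111 repeats. The Q92 line is given 89 repeats in the growth protocol. Each repeat length is 1 line, so repeat length and line cannot be told apart. The mESC were grown with LIF on a feeder layer of irradiated mouse fibroblasts, and the NPC on laminin with FGF and EGF. The labels do not say which part of Htt the KO line lacks.

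A ribosome joins a small and a large subunit, each built from ribosomal RNA and many proteins that are needed in near-equal numbers. Their mRNAs are among the most abundant in dividing cells, and many carry a tract of pyrimidines at their first bases that couples their translation to growth signals. Many ribosomal protein genes also host small nucleolar RNAs (snoRNAs), which are cut from their introns and guide the modification of ribosomal RNA. The libraries measured short RNA, so a count for a member is a read of at most 50 bases from a piece of RNA within its exons, and it need not come from an intact mRNA.

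The first finding is that 1 gene held most of the counts. Rpl7a, a large subunit protein gene at chr2:26910764-26913318 on the plus strand (GRCm38), had 49065 counts, which is 85.3% of the 57536 counts of all members. It ranked as number 2 among all protein-coding genes. The 91 other members together had 8471 counts. All members together made up 0.230% of the 25027120 counts in the table and 5.02% of the counts on protein-coding genes. The label "ribosomal protein mRNAs" therefore describes mainly 1 row when the members are summed, and the sums below are given with and without Rpl7a.

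The small RNAs inside Rpl7a are shown because they, and a further stretch of its introns, bear on what that row may hold. Box C/D snoRNAs carry a C box near the 5′ end, written here as TGATG, and a D box near the 3′ end, written as CTGA. Capitals mark these boxes. GENCODE M21 has 3 snoRNAs inside Rpl7a on its strand, followed here by a stretch of intron 6 with the same arrangement.
Gm23969: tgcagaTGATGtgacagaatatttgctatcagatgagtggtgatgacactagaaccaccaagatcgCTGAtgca
Gm22879: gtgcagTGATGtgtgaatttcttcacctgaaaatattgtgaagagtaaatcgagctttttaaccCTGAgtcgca
Gm24134: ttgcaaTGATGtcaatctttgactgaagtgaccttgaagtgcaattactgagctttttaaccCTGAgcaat
Rpl7a intron stretch: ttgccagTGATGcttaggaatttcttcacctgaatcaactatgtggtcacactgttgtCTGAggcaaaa

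Gm23969 lies at chr2:26911261-26911334, in an intron of every Rpl7a transcript, and had 467075 counts. Gm22879 at chr2:26912218-26912291 and Gm24134 at chr2:26912530-26912600 lie within an exon of 1 annotated Rpl7a transcript, and both were listed at 0 counts in every library. The stretch of 69 bases at chr2:26912848-26912916 lies in intron 6, which 2 of the 7 Rpl7a transcripts keep as exon, and 0 other genes are annotated over that intron. It shares a run of 17 bases, gaatttcttcacctgaa, with Gm22879. A TGATG followed by a CTGA starting 40 to 60 bases further on, searched on the gene's strand only, is found in 0.180% of 32851 promoter windows cut to the same length (RefSeq, GRCm38.p6) and in 9.56% of 1507 snoRNA transcripts. The stretch was cut around a match found by searching all 186 bases of intron 6. The promoter windows were shorter and not placed on a match, so their share does not say how often such an intron holds one. A match is a description of these letters. Which stretch of Rpl7a the reads came from was not tested, since the table gives 1 number per gene.

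Rpl7a had 1278 to 6263 counts per library in mESC and 752 to 1500 in NPC. As a share of the counts of the intronic snoRNA Gm23969 in the same library, it ranged from 6.24% to 19.7% in mESC (median 9.76%) and from 10.3% to 19.1% in NPC (median 12.9%). The Q50 line gave the 2 highest shares in each cell type, at 17.3% and 19.7% in mESC and at 19.1% and 16.9% in NPC. Within each cell type Gm23969 itself was lowest there, at 16970 and 10110 counts per 1e6 of all counts in the mESC Q50 libraries and 13330 and 13110 in the NPC Q50 ones.

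Small RNA genes also lie inside other members. Inside 32 member genes, on the same strand, GENCODE M21 places 66 small RNA genes, 58 of them snoRNAs. These small RNAs together had 7784754 counts, 31.1% of all counts in the table. Of the 34 that overlap an exon of their host in any transcript, 32 were listed at 0 counts over all 24 libraries, and the exceptions were Snord42b in Rpl23a with 11939 counts and Gm23202 in Rpl21 with 15. Of the 32 that overlap no host exon, 31 had counts, the exception being Gm47284 in Rpl27a. The submitters' processing notes name HTSeq as the counter. How it treated reads that overlap several genes is not given in the sources used here.

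**Figure D1:**
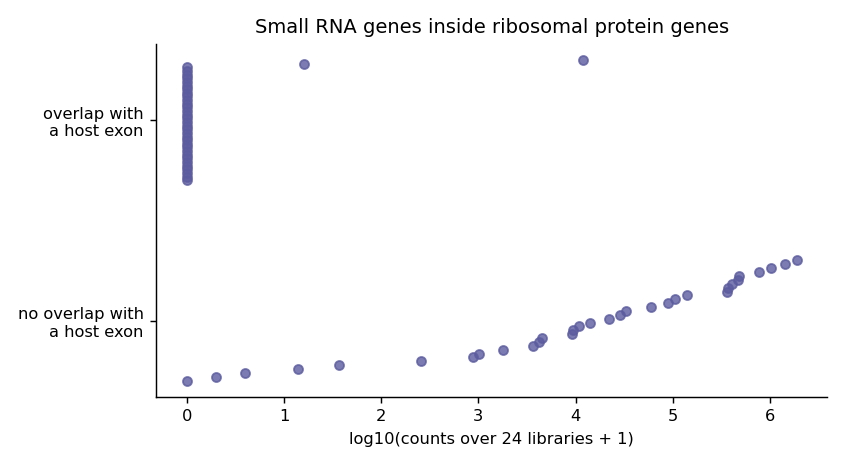
Counts over all 24 libraries of the 66 small RNA genes inside member genes, on a log10 scale after adding 1, split by whether the small RNA overlaps an exon of its host. Each point is 1 small RNA gene, spread vertically by rank. Of the 34 overlapping genes 32 sit at 0, against 1 of the 32 others.

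Below Rpl7a, counts were low. Of the 92 members, 84 had a count in at least 1 library, 79 of them in both cell types and 5 in mESC only. These 5 had 14 or fewer counts each and NPC totals were lower, so this does not show a difference between cell types. The members seen in all 24 libraries numbered 17, while 28 members had 100 or more counts over all libraries and 22 had under 20. The 8 members without a count were Rpl3l, a muscle paralog of Rpl3, the large subunit gene Rpl36 and 6 retrogene or pseudogene symbols such as Rps12-ps3. Of all members, 62 share at least 20% of their stretches of 30 bases with transcripts of other genes and 5 share at least 90%. Reads from these can be split or lost between such genes. The shares include genes annotated over the member's own exons, so they do not count second copies alone. Of the same 92 members, 39 have an exon that overlaps another gene, on the same strand for 28 and on the other strand for 19, some on both. With totals of 342022 to 682113 counts in NPC and 642384 to 2360434 in mESC, a member at 0 counts may hold up to between 4.40 and 8.77 counts per 1e6 in an NPC library and between 1.27 and 4.67 in an mESC library (3 counts of the total, counting error only).

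Levels per length were compared on CPM (the counts over the library total scaled by edgeR's TMM method, times 1e6) divided by the exon length in kilobases. Rpl7a stood at 1251 CPM per kilobase in mESC and 1182 in NPC. Rpl8, which binds the ribosome's catalytic centre, had 13.03 and 8.04, and Rpl4, whose loop lines the exit tunnel, 10.7 and 5.57. Both lay far below Rpl7a on this scale.

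The P stalk recruits the translation factors that drive elongation. Its base Rplp0 had 91 counts, at 4.56 ± 3.24 CPM in mESC and 4.15 ± 1.92 in NPC (mean ± SD over 12 libraries each). Rplp2 had 54 counts, at 2.59 ± 1.76 and 2.76 ± 2.49 CPM, and Rplp1 had 13 counts. None of the 3 passed the filter for the comparison of cell types. Of the paralogs, Rpl7l1 had 69 counts, Rps27l 59, Rpl22l1 55, Rpl36al 25 and Rpl10l 11. Rpl10l, a copy of Rpl10 known from the testis, had its 11 counts in 7 mESC libraries and was at 0 in all 12 NPC libraries. These are too few counts to show a difference at the lower NPC totals. Rps27l, a p53 target, had 51 counts in mESC and 8 in NPC, and Rpl7l1 had 58 and 11, on totals that were lower in NPC.

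In mESC, the summed level of the members differed more between the 2 libraries of a line than it did between the cell types. For the 91 members without Rpl7a, the sums in counts per 1e6 of all counts were, in the mESC libraries, 205 and 627.5 for KO, 238 and 647 for WT, 270 and 384 for Q20, 220 and 848 for Q50, 202 and 479 for Q92, and 212 and 581 for Q111. In NPC they were 353 and 460 for KO, 164 and 433 for WT, 273 and 308 for Q20, 218 and 276 for Q50, 503 and 496 for Q92, and 444 and 445 for Q111. Every NPC value but that of the first WT library lies inside the mESC range of 202 to 848. In NPC the 4 Q92 and Q111 libraries all lie above the 4 Q20 and Q50 libraries, given here as a description with no test. On TMM-scaled totals they overlap, with 339 to 470 against 231 to 373.

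Rpl7a, in counts per 1e6 of all counts, ran from 1172 to 2931 in mESC (median 1936) and from 2028 to 2616 in NPC (median 2203). All members summed to 2396 ± 716 counts per 1e6 (mean ± SD) over 12 mESC libraries and 2646 ± 244 over 12 NPC libraries, a log2 ratio of 0.14 for NPC over mESC. The ratio was −0.17 without Rpl7a, −0.16 as a share of protein-coding counts and −0.14 on TMM-scaled totals. These values straddle 0. All are smaller than 0.41, the replicate SD on the log2 scale of all members as a share of all counts. That SD was not computed for the other sums.

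**Figure D2:**
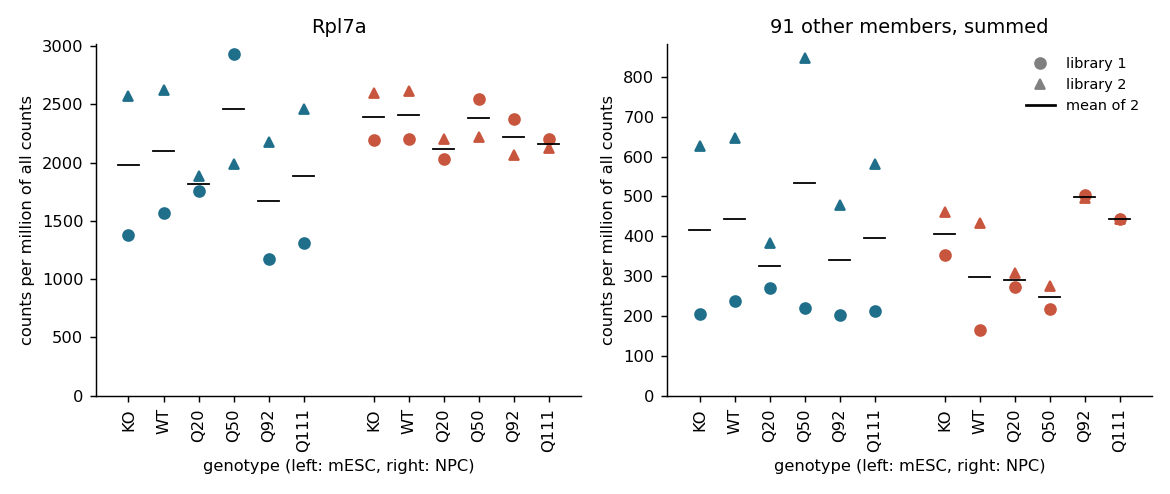
Counts per 1e6 of all counts for Rpl7a (left) and for the 91 other members summed (right), by genotype in mESC (blue) and NPC (red). Circles and triangles are the libraries numbered 1 and 2 and bars are their means. In 5 of 6 mESC lines the summed value of the second library is more than 2 times that of the first, and the Q20 line is the exception.

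In 5 mESC lines (all but Q20) the library numbered 1 had 2134729 to 2360434 counts in total and the library numbered 2 had 642384 to 1149003. The shallower libraries had 479 to 848 counts per 1e6 on members other than Rpl7a, and the deeper ones 202 to 238, so the ranges do not overlap. The stem cell markers moved with this split, with 76.4 to 98.4 summed counts per 1e6 in the shallower and 38.6 to 55.7 in the deeper libraries, and their part in the result was not tested. The 2 Q20 libraries, with totals of 1795879 and 1901042, gave 270 and 384. Among genes with at least 30 counts in these 10 libraries, the log2 ratio of the shallower over the deeper libraries' share had a median of 1.66 for 55 members without Rpl7a and of 0.25 for 2734 other protein-coding genes. It exceeded 1 for 41 of the 55 members (74.5%) and for 16.5% of the other genes. Rpl27, Rpl18 and Rps10 had the highest ratios at 3.55 (from 6 to 32 counts), 3.03 (63 to 222) and 2.87 (7 to 23). Rps27l (−0.32), Rpl39 (0.03), Rpl4 (0.25) and Rpl7a (0.53) had the lowest.

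As list sums, other genes of the translation machinery were also at higher shares in the shallower libraries. Summed over each list, the ratio of shares, library 2 over library 1 in the 5 lines, was 2.37 to 3.86 for members without Rpl7a, 1.42 to 2.31 for mitochondrial ribosomal proteins, 1.33 to 1.89 for ribosome biogenesis genes and 1.15 to 1.63 for translation factors. The ratio for the share of all protein-coding counts was 1.10 to 1.28 in the same lines. Gene by gene, the median log2 ratio was 0.65 for 32 translation factors and 0.87 for 23 ribosome biogenesis genes. The 3 mitochondrial ribosomal protein genes with enough counts had a median of 0.00029, and 0 of them exceeded 1. Whether these lists differ from the members was not tested. The labels give no batch or library preparation date, so the library number and depth cannot be told apart from other differences between these libraries. Every mESC comparison below sets 1 deep and 1 shallow library in each group except Q20.

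**Figure D3:**
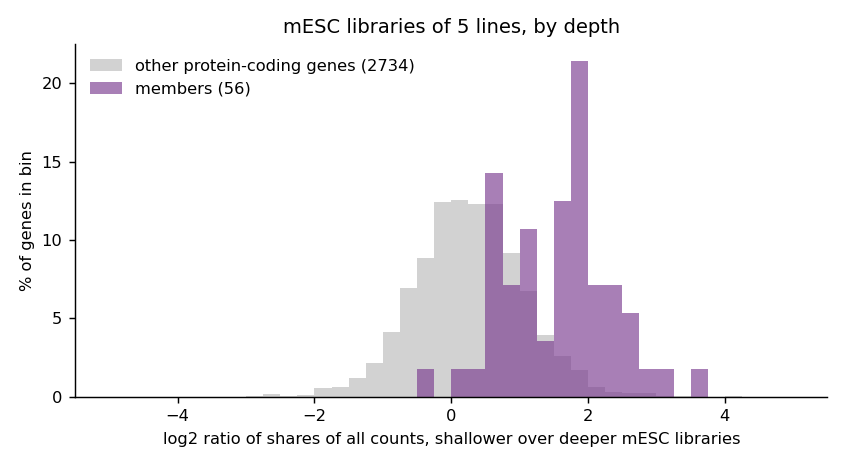
Distribution over genes of the log2 ratio of shares of all counts, shallower over deeper libraries, summed over 5 mESC lines. Purple bars are 56 members with at least 30 counts, grey bars 2734 other protein-coding genes with at least 30 counts, each as % of its genes. The members' median is 1.63 and that of the other genes 0.25.

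Between cell types, 5 members were lower in NPC and 0 were higher. The fit (edgeR's quasi-likelihood test, 904 genes tested, p adjusted by Benjamini-Hochberg) set the average of the NPC groups against that of the mESC groups over all 24 libraries. It tested 20 members, and in that fit 58.4% of all tested genes were called at an adjusted p under 0.05, 28% lower and 30.4% higher. The members' share called, 5 of 20, was below the 58.4% called in either direction. All 5 were lower, and that share is close to the 28% of all tested genes called lower. Counts on mitochondrial genes also split by cell type, at 0.491% to 1.86% of all counts in mESC and 1.99% to 3.78% in NPC, and their part in the result was not tested. The estimates had a median of −0.53 over the 20 members and −0.02 over all genes tested, and 18 of the 20 were below 0. Of these members 10 were large subunit and 10 small subunit proteins, with 4 and 1 called. The other 72 members did not pass the filter and say nothing here in either direction.

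Rpl4 had 11 to 48 counts in mESC (lowest 11.7, median 21.8 and highest 27.5 CPM) and 1 to 13 in NPC (2.38, 11.5 and 20.5 CPM). The log2 fold change was −0.95 ± 0.25 (SE, adjusted p = 0.00264 by edgeR). The ranges overlap, and the 2 lowest NPC libraries were 1 of KO and 1 of Q50.

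Rpl8 had 14 to 36 counts in mESC (8.28, 18.3 and 25.9 CPM) and 3 to 9 in NPC (6.28, 11.8 and 13.9 CPM). It was lower by 0.68 on the log2 scale (−0.68 ± 0.23, adjusted p = 0.0137 by edgeR). The highest NPC library lay below the mESC median.

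Rpl18, a large subunit protein, had 6 to 67 counts in mESC (4.03, 21.01 and 96.3 CPM) and 0 to 13 in NPC (0, 7.99 and 34.3 CPM). The fold change was −1.71 ± 0.57 (adjusted p = 0.0136 by edgeR). The mESC values split by library, with 4.03 to 10.6 CPM in the 5 deep libraries, 20.1 and 21.9 in Q20 and 26.5 to 96.3 in the 5 shallow ones, so that 8 of the 12 NPC libraries lie at or above the lowest deep library. An exon of Rpl18 overlaps Sphk2 on the other strand.

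Rps24, a small subunit protein mutated in some Diamond-Blackfan anaemia, had 11 to 48 counts in mESC (7.36, 18.4 and 53.4 CPM) and 0 to 14 in NPC (0, 8.71 and 33.4 CPM). Its fold change was −1.21 ± 0.50 (adjusted p = 0.0414 by edgeR). Its mESC values split in the same way, from 7.36 to 14.1 CPM in the deep libraries and from 37.4 to 53.4 in the shallow ones. The call was lost in 15 of the 24 fits without 1 library.

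Rpl12, a large subunit protein at the base of the stalk, had 10 to 19 counts in mESC (5.84, 10.1 and 27.3 CPM) and 0 to 9 in NPC (0, 6.80 and 20.96 CPM). The fold change was −1.27 ± 0.49 (adjusted p = 0.0308 by edgeR). This call rested on the Q20 line, whose 2 NPC libraries had 0 counts: without that line it was −0.39, with an adjusted p of 0.386, and the call was also lost in 9 of the 24 fits without 1 library.

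Just outside the threshold were Rpl10 (−0.68 ± 0.30, adjusted p = 0.0579 by edgeR) and Rps25 (−0.98 ± 0.46, adjusted p = 0.0707). Of the most counted members, Rps3 (−0.14 ± 0.21), Rps9 (−0.16 ± 0.34) and Rps14 (−0.25 ± 0.38) did not pass, and neither did Rpl7a (−0.11 ± 0.13, adjusted p = 0.485 by edgeR). Rps3, a small subunit protein with a role in DNA repair, had 3 to 20 counts per NPC library and 9 to 40 per mESC library, at medians of 15.1 and 16.8 CPM. The only estimates above 0 were Rpl9 (0.18 ± 0.32) and Rpl27 (0.78 ± 0.59). Rpl27 passed the filter through the Q111 NPC libraries alone, where it was highest.

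The calls depended on the scaling and on the libraries. On library totals, which move the median of all genes to 0.33, 0 of the 20 members passed (2 at an unadjusted p under 0.05), and 9 of 20 estimates were above 0. An additive model of cell type and genotype on all 24 libraries also called 5 members, with Rps25 in place of Rpl12. In that model with the libraries numbered 1 alone, 2 members passed, Rpl27 higher (2.21 ± 0.71, adjusted p = 0.0143 by edgeR) and Rpl4 lower, and with those numbered 2 alone 7 passed, all lower. These fits kept the genes of the full fit, which Rpl27 had entered only through NPC libraries where it was high. Its call therefore gives no support of its own for a higher level in NPC. Rpl4 was the 1 member called in the full fit and with either set. The DESeq2 Wald test called 6, the 5 named and Rps25.

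**Figure D4:**
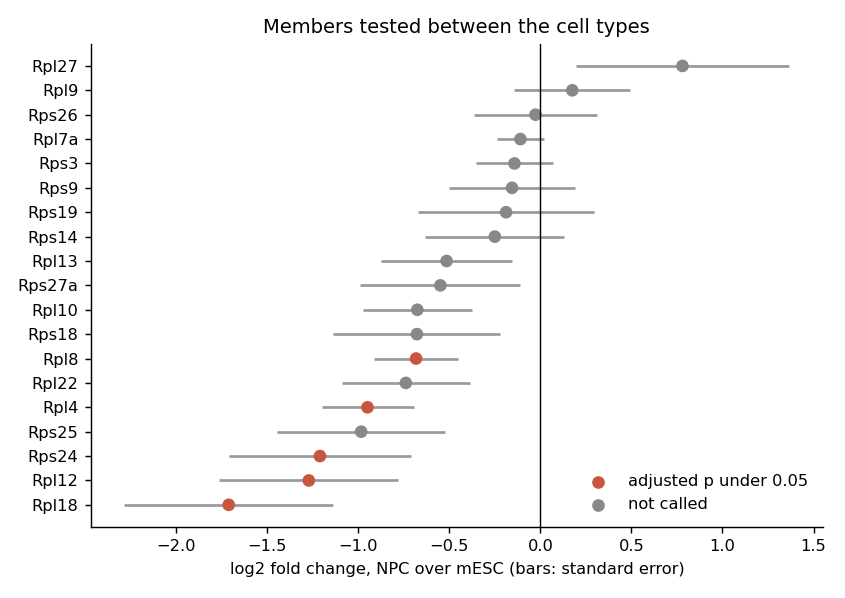
Log2 fold change of NPC over mESC for 19 of the 20 members that passed the filter, with standard errors as bars, from the edgeR fit of 24 libraries. Red points are the 5 members with an adjusted p under 0.05. All but Rpl9 and Rpl27 lie left of 0.

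Other genes of the translation pathway were read against the same background of 28% of tested genes lower and 58.4% called in either direction. Of 38 translation factors, 15 were tested, 6 were lower, 0 higher and 9 not called, with a median estimate of −0.43. The called ones included Eif2s2 (−1.88 ± 0.54, adjusted p = 0.00533) and Eef1a1 (−0.66 ± 0.20, adjusted p = 0.00642), the factors that bring the initiator and the elongator tRNA. Of 32 ribosome biogenesis genes, 7 were tested, 6 were lower and 0 higher, led by the nucleolar proteins Ncl, nucleolin (−1.47 ± 0.17, adjusted p = 1.07e-07), and Npm1, nucleophosmin (−1.22 ± 0.19, adjusted p = 1.16e-05). Of Fau and Rack1, Rack1 alone was tested and was not called (−0.40 ± 0.19, adjusted p = 0.0754 by edgeR). The 78 mitochondrial ribosomal protein genes had 1316 counts in mESC and 404 in NPC, and 0 passed the filter. No test set these lists against the members.

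The cell type labels were checked on marker genes. The 12 stem cell markers summed to 30.6 to 98.4 counts per 1e6 in mESC and to 0 to 10.4 in NPC, with 6 of the 12 at 0 there, and the highest NPC values were 10.4 and 7.38 in the Q20 libraries. The neural progenitor markers summed to 12.4 to 34.8 in mESC and 188 to 519 in NPC. Of the 9 tested, 8 were higher in NPC and 1, Sox2, was lower (−0.65 ± 0.26, adjusted p = 0.0379 by edgeR). Neuron markers summed to 1.05 to 9.73 in mESC and 15.4 to 62.2 in NPC. Astrocyte markers summed to 0 to 1.75 in mESC and 0 to 23.4 in NPC. Feeder fibroblast markers summed to 7.23 to 24.4 in mESC and 1.47 to 18.7 in NPC, mostly Fn1, with 7 of the 10 at 0 in mESC; their part in the results was not tested. In bulk RNA, fewer cells of a type and less RNA per cell cannot be told apart. Htt had 2 and 3 counts in the KO mESC libraries, 1 in each KO NPC library and 0 to 9 in the others, too few to check the KO label.

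Loss of Htt changed no member detectably. In mESC, 48 members were tested and 0 were called (edgeR; 0 members at an unadjusted p under 0.05, and 0 by the DESeq2 Wald test), where 0% of the 1766 genes tested were called. Rpl7a had 3000 and 2478 counts in KO and 3583 and 2701 in WT (1593 and 2636 against 2023 and 2678 CPM), and its fold change was −0.10 ± 0.43. Rplp0 was at −0.83 ± 0.90 and Rpl7l1 at 0.72 ± 0.89, and the estimates of the 48 members ran from −1.60 (Rpl27) to 1.18, with standard errors of 0.43 to 1.49. The interval of 2 standard errors around the estimate reached a 2-fold change for 47 of the 48, so this does not show that the levels are alike.

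In NPC, 5 members passed the filter and 0 were called for KO against WT (edgeR; 0 at an unadjusted p under 0.05 and 0 by DESeq2), where 1.36% of 441 genes were called. Rpl7a had 847 and 913 counts in KO and 1500 and 1153 in WT, or 1679 and 2176 against 2280 and 2412 CPM. Both KO values lie below both WT values on this scale, and the fold change was −0.21 ± 0.14 (adjusted p = 0.640 by edgeR). Rps3, Rps24 and Rpl9 had estimates of 0.24 to 0.80 with standard errors of 0.54 to 0.94. The difference of the KO effect between cell types was tested for 20 members and 0 were called (edgeR; 0 at an unadjusted p under 0.05 and 0 by DESeq2), where 0% of 904 genes were.

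Summed over all members, the log2 ratio of KO to WT was −0.09 in mESC and 0.05 in NPC as a share of all counts, against replicate SDs of 0.66 and 0.23. In NPC the direction depended on the scale, with −0.22 on TMM-scaled totals. Without Rpl7a the ratio was 0.44, and the SD of 0.23 was not computed for that sum. There the first WT library had 164 counts per 1e6 and the second 433, against 353 and 460 in KO, so the values overlap.

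Among the 6 genotypes, Rpl7a was the 1 member called, in NPC. There 5 members were tested and 37.2% of 441 genes were called. On the CPM scale Rpl7a was highest in Q50 at 2832 and 3000 and lowest in Q92 at 1610 and 1415, with 1679 and 2176 in KO, 2280 and 2412 in WT, 1721 and 1908 in Q20, and 1986 and 2252 in Q111 (adjusted p = 0.0360 by edgeR for any difference). On library totals the adjusted p was 0.823 and the Q50 and Q92 values were 2545 and 2221 against 2373 and 2070 counts per 1e6, which overlap. The call was lost in 8 of 12 fits without 1 library. On library totals the 1 member called was Rps3 (adjusted p = 0.0413 by edgeR). In mESC, 48 members were tested and 0 were called (edgeR; 0 at an unadjusted p under 0.05 and 0 by the DESeq2 likelihood ratio test), where 0.0566% of 1766 genes were.

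Repeat length was tested as a trend in log2 level for each 10 added repeats across Q20, Q50, Q92 and Q111. The libraries of a line were taken as independent in these fits. In mESC 40 members were tested and 0 were called (edgeR; 0 at an unadjusted p under 0.05 and 0 by DESeq2), where 0% of 1487 genes were, with slopes from −0.12 to 0.16. In NPC 4 members were tested and 0 were called, where 6.45% of 403 genes were. Rpl9 had an unadjusted p under 0.05, at 0.19 ± 0.08 per 10 repeats (adjusted p = 0.243 by edgeR), and the DESeq2 Wald test called 0.

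The slope of Rpl12 differed between the cell types. In NPC the Q20 line had 0 counts in both libraries. Q50 had 1 and 2 counts (2.35 and 5.73 CPM), Q92 had 8 and 5 (12.4 and 7.88 CPM) and Q111 had 7 and 9 (18.5 and 20.96 CPM). The lines do not overlap in this order. In mESC the Q20 line had 8.04 and 12.1 CPM, Q50 had 7.82 and 27.3, Q92 had 6.71 and 14.3 and Q111 had 6.28 and 12.5, with overlapping lines and a slope of −0.05 per 10 repeats. The slope in NPC minus that in mESC was 0.56 ± 0.13 (adjusted p = 0.0164 by edgeR). The fit took the libraries of a line as independent, though each repeat length is 1 line. Its SE and p therefore do not measure the spread between lines. Rpl12 was the only one of 14 members tested to be called, where 1.51% of 663 genes were called and 0.151%, Rpl12 itself, in the higher direction. The filter asks for a minimum level in 2 libraries. Rpl12 reached it in the first Q92 and both Q111 libraries of NPC and in the second Q50 library of mESC. It was thus tested mainly through libraries that make the slope, so being the only one called gives no added support. Without a filter it was not called.

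With 0 of 2 Q20 libraries counted, levels in NPC were set against a floor of 3 counts over the 2 Q20 libraries. The 16 counts of the 2 Q111 libraries stood 7.88-fold above that floor on scaled totals, and the 13 counts of Q92 4.03-fold. The counting error of the 16 and 13 counts and the spread between libraries are left out, so these ratios are not bounds. KO and WT NPC each had 2 and 7 counts. Without the Q20 line the difference in slopes was 0.49 with an adjusted p of 0.674 by edgeR, so the call rested on that line, and it was lost without either Q20 NPC library. The Q20 libraries also had the 2 lowest sums of neural progenitor markers in NPC, at 199.7 and 188.2 counts per 1e6 against 211 to 519 in the others, and the 2 highest of stem cell markers, at 10.4 and 7.38. Their part in the result was not tested. Of the 23 members at 0 in both Q20 NPC libraries, 10 had counts in the other 10 NPC libraries. Rpl12 had 50 there, and the next, Rpl36a, had 9. An exon of Rpl12 (chr2:32961559-32965345, plus strand) overlaps Lrsam1 on the other strand, with 11 counts in all, and Snora65 on the same strand, listed at 0.

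**Figure D5:**
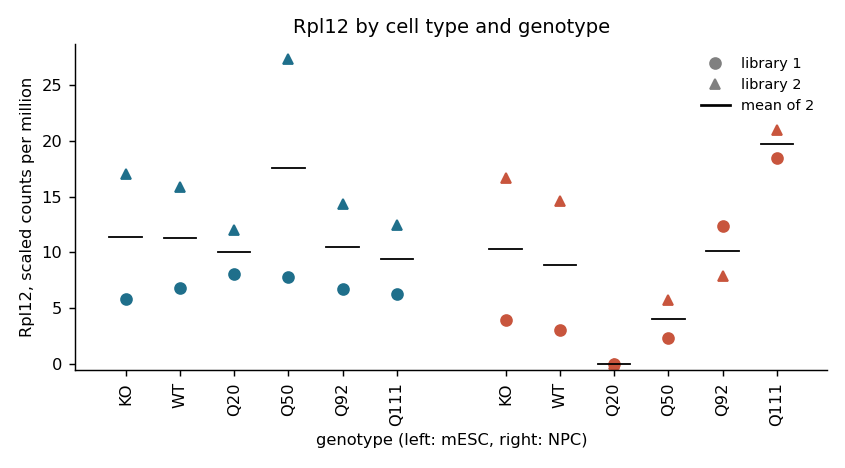
TMM-scaled CPM of Rpl12 by genotype in mESC (blue) and NPC (red). Circles and triangles are the libraries numbered 1 and 2 and bars are their means. Both Q20 NPC libraries are at 0 and both Q111 NPC libraries lie at 18.5 or above, while the mESC lines overlap.

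The pyrimidine tract mentioned above was looked for at the annotated mRNA starts of RefSeq (GRCm38.p6), as a C followed by at least 4 more C or T bases from the first transcribed base. Of 66 members with an annotated start, 14 (21.2%) held it, against 2.96% of 26959 other genes. No match says only that these letters are not at the annotated base, and the small RNA counts do not bear on it.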

How the data were processed

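The authors deposited raw gene-level counts for the 24 mESC and NPC libraries. Per the submitters' processing notes, CASAVA 1.8, STAR and HTSeq were used with GRCm38.p6. Trimming, strand, reads with several matches and the annotation release are not given in the sources used here. The 4 columns with Q89 in their name were taken as Q92.

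Identifiers were matched to GENCODE M21 (55154 matched; 57 counts on the others). Tests used edgeR 4.0.16 (R 4.3.3): quasi-likelihood fits on the deposited counts, TMM scaling, filterByExpr with a minimum count of 10 and total of 15, and Benjamini-Hochberg adjustment over all genes tested. Standard errors are the absolute log2 fold change over the square root of F. All libraries of a fit shared an estimate of the spread: the 12 of a cell type, all 24, or the knock-in libraries alone in the slope fits. The tests were checked on simulated counts with 1 spread for all genes and no difference tied to library number. That check does not cover the split between deep and shallow mESC libraries. DESeq2 1.42.0, other scalings, filters and gene sets, and leaving out each library (with the genes of the full fit) were alternatives. Fits without Rpl7a and on 1 library number were added after the data were seen.

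Named members were those called in any of 9 fits, the 10 with the highest mean CPM, Rpl12, those nearest the threshold, and paralogs and P stalk genes with 10 or more counts. The values of 1 member and of 1 listed gene are not reported here. Rpl27, Rpl9, Rps10, Rpl39 and Rpl36a were chosen after their values were seen. The members and lists were chosen with earlier results of these data known. The labels number the replicates without tying a number to a shared batch, so numbers were not treated as pairs.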

Additional observations from a re-analysis of the deposited data

Results flagged for a closer look

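The CAG slope of Rpl12 in NPC minus that in mESC was 0.56 per 10 repeats on the log2 scale and passed the test of the difference itself. That test took the libraries of a line as independent and does not measure the spread between lines. Rpl12 passed its filter mainly through Q92 and Q111 NPC libraries, where it was high. Both Q20 NPC libraries were at 0 counts, and the adjusted p by edgeR was 0.0864 and 0.0898 without 1 or the other of them. Over the NPC knock-in libraries alone Rpl12 passed no filter, and without a filter its slope there was 0.49 ± 0.12 (adjusted p = 0.00954 by edgeR). Groups of 2 libraries allow no check for a library that stands apart from its group.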

How the results depend on the processing

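The 5 members called in NPC against mESC became 0 on library totals, 26 (of 84 tested) without a filter on low counts, 8 with the replicate block, 0 with wild-type libraries alone (10 tested), 3 without the Q20 line, 2 with an additive model on the first replicates alone (the additive model on all libraries called 5), and 3 to 8 when 1 library was left out. All calls under these settings were lower in NPC except Rpl27 with the first replicates alone. Rpl27 had passed the filter only through the Q111 NPC libraries, where it was highest. The replicate block called all 5 named members with Rpl10, Rpl22 and Rps25, and changed no other count of members called. Same-numbered deviations correlated above 0.1 in 10 of 15 pairs of groups in mESC, at 0.41 to 0.52, with 0.08 or less in the pairs with Q20, and in 4 of 15 in NPC. No member was called for KO against WT, or for the difference of that effect between cell types, under any setting run. The 1 member called among genotypes in NPC became 0 without a filter, and 0 to 1 when 1 library was left out. Without a filter 1 member (Rpl12) was called for the NPC slope in place of 0. The 1 called for the difference in slopes became 0 without a filter and 0 without the Q20 line, and was 0 to 1 when 1 library was left out. The summed log2 ratio of KO to WT in NPC, 0.05, was −0.22 on TMM-scaled totals, 0.44 without Rpl7a, 0.40 for members without an exon overlap and 0.39 for members with under 20% shared stretches, and −0.12 to 0.25 when 1 library was left out. That of mESC ran from −0.68 to 0.40 when 1 library was left out. The cause of these changes was not tested. Depth limits most members: 22 of the 92 had under 20 counts over 24 libraries.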
